A study of Mus musculus with 4 samples.

Results

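The 56 nucleolar ribosome assembly factors described here build the small and the large ribosomal subunit or carry the guide RNAs that modify their rRNA. They were chosen by symbol, with 10 or more counts in at least 2 libraries as the count minimum, and 56 of 56 listed symbols were found among the 27179 rows of the table and passed it. The members were also among the 12675 genes tested, which passed the low-count filter of the test. No member lay near that minimum, since the lowest count of a member in any library was 366, for Ppan. The list itself was named with earlier results of this same comparison known, so the differences below describe its members and lend no support to the choice of the list. By role, 27 are small-subunit factors, 19 are large-subunit factors, 8 are proteins of small nucleolar ribonucleoproteins (snoRNPs) and 2, nucleolin (Ncl) and nucleophosmin (Npm1), are abundant nucleolar proteins.

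B16F10 is a mouse melanoma cell line, labelled wild type, and all cells were grown in medium with fetal bovine serum. The study compared a 6 h exposure to 0.01% plain olive oil with the same exposure to 0.01% ozonated olive oil, with 2 RNA-seq libraries per oil. The labels do not say whether the 2 libraries of an oil came from separate cultures, so p-values measure the spread between these libraries, which may be technical. No untreated cells were analysed here, so every value is relative to plain oil.

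Library totals ran from 22539486 to 30038784 counts, and 15457 to 16068 genes had a count. The summed level of 8 melanocyte lineage genes was 20467 to 25458 counts scaled to library size (CPM) with plain oil and 22577 to 26518 CPM with ozonated oil, so the lineage genes of the labelled line were high in all 4 libraries. Summed fibroblast, leukocyte and endothelial markers stayed below 10 CPM in every library, and the leukocyte genes Adgre1 and Cd3e and the endothelial genes Cdh5 and Kdr were at 0. Keratinocyte markers summed to 3.53 and 24.4 CPM with plain oil and to 0.921 and 19.3 CPM with ozonated oil, with no separation of the oils. The ozonated oil libraries differed more from each other than the plain oil libraries did: chi-square over its degrees of freedom was 96.4 for the first pair and 29.8 for the second.

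Ribosomes are assembled in the nucleolus around an rRNA precursor made by RNA polymerase I. The UTP-A, UTP-B and UTP-C complexes and the U3 snoRNP pack the start of that precursor into the small-subunit processome, after which a pre-40S particle matures and is exported. A separate set of factors folds the large-subunit rRNA into pre-60S particles, while box C/D and box H/ACA snoRNPs place ribose methylations and pseudouridines. Growing tumour cells such as melanoma lines keep this pathway active, and many of its genes are textbook targets of the transcription factor MYC.

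The assembly factors were lower with ozonated oil at almost every step. The log2 change, ozonated over plain oil, was negative for 55 of 56 members, against 46.0% of all genes tested, with Npm1 as the exception. In 48 of 56 members both ozonated oil libraries lay below both plain oil libraries, which held for 20.0% of all genes tested. Across the members the median log2 change was -0.60, a level of 0.659 times that with plain oil, beside a median of 0.035 over all genes tested. Single values ran from -1.49 for Rrp1b to 0.03 for Npm1. In bulk RNA a lower level in every cell and fewer cells with a high level cannot be told apart.

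The size of the change was graded within the list. The log2 change was below -1 for 8 members, between -1 and -0.5 for 24 members and above -0.5 for the other 24, of which 4 lay above -0.1. As medians over members of log2(CPM + 0.5) relative to the plain oil mean, ozonated oil library 1 stood at -0.59 and library 2 at -0.60, while the plain oil libraries stood at -0.02 and 0.02. Both ozonated oil libraries therefore showed the shift at nearly the same median, although single genes differed between them.

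No member passed the threshold of 0.05 after Benjamini-Hochberg adjustment over all genes tested with edgeR's quasi-likelihood test, and the share called over all genes was likewise 0%. The smallest adjusted p among the members was 0.166. Without adjustment 35 of 56 members were lower at p below 0.05 and none was higher, beside 5.29% of all genes tested being lower at that level. This count and the count over all genes both fell when either plain oil library was left out. The median log2 change of the members was -0.62 without plain oil library 1 and -0.55 without plain oil library 2. DESeq2, run as the alternative test, called 16 members lower and none higher after adjustment, beside 1.28% of the genes it tested being called lower. With ozonated oil library 1 left out, edgeR calls rose among the members and over all genes alike. The median log2 change was then -0.64 over the members and -0.017 over all genes tested. With all 4 libraries these medians were -0.60 and 0.035. An exact permutation over 2 libraries against 2 cannot give a two-sided p below 0.33 for any single gene.

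**Figure D1:**
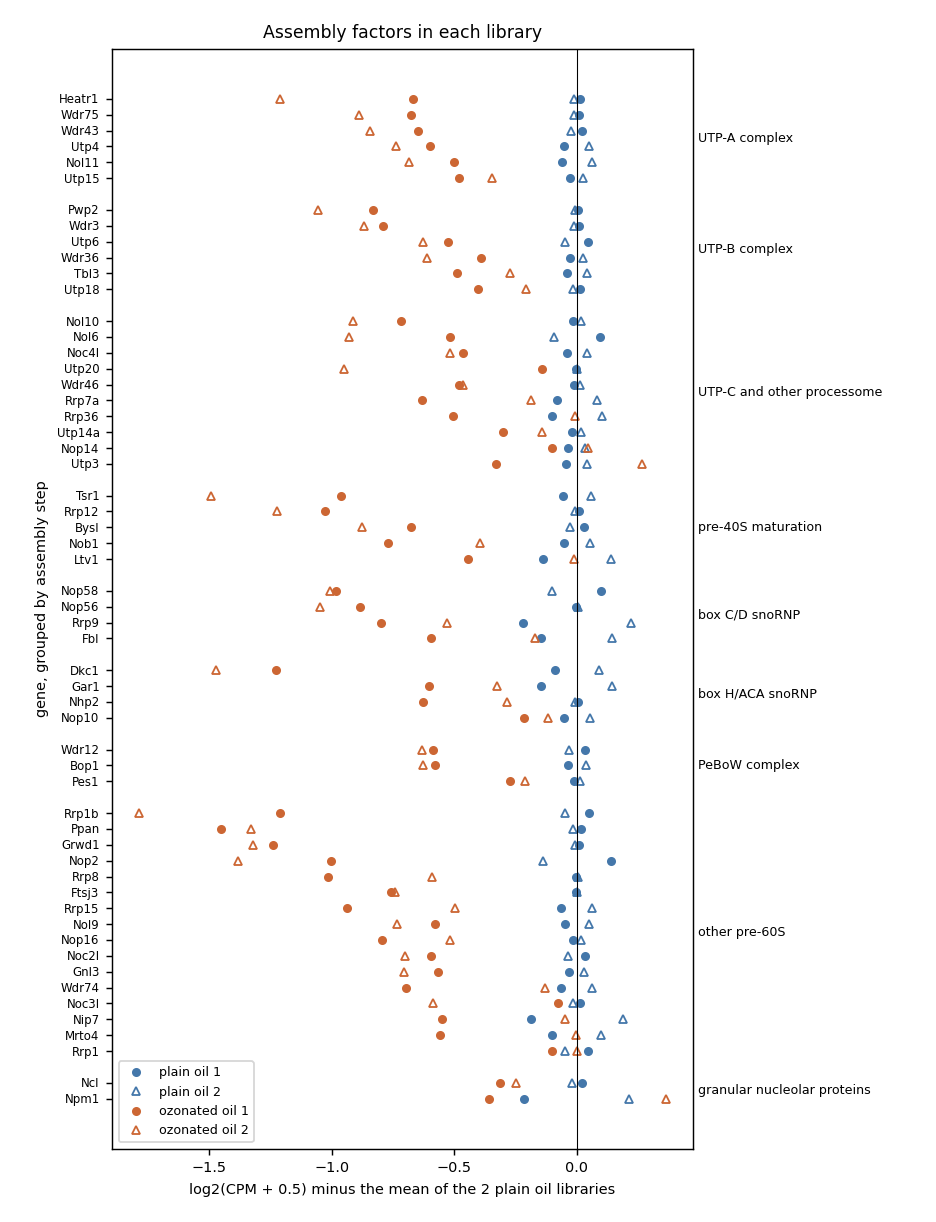
Each row is an assembly factor and each point a library, as log2(CPM + 0.5) minus the mean of the 2 plain oil libraries, with genes grouped by assembly step. In 48 of 56 rows both ozonated oil points lie to the left of both plain oil points, and the overlapping rows are those where ozonated oil library 2 sits near or above plain oil.

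The 3 main classes were shifted by similar amounts. The median log2 change was -0.58 over the 27 small-subunit factors, -0.65 over the 19 large-subunit factors and -0.58 over the 8 snoRNP proteins. Both ozonated oil libraries lay below both plain oil libraries for 23 of 27, 16 of 19 and 8 of 8 of them, and 18, 13 and 4 of them were lower at an unadjusted p below 0.05. DESeq2 called 8, 5 and 3 of them lower. The order of the classes was not the same in the 2 ozonated oil libraries. In library 1 the class medians relative to plain oil were -0.52 for small-subunit factors, -0.59 for large-subunit factors and -0.71 for snoRNP proteins, and in library 2 they were -0.63, -0.63 and -0.43. No class therefore stood apart from the others in both libraries, and the difference between classes was not tested, since genes are not replicates.

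**Figure D2:**
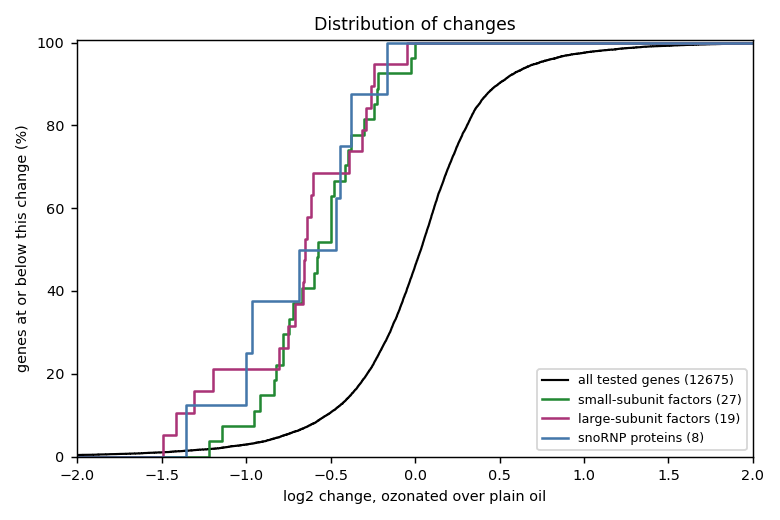
Cumulative share of genes (vertical axis, percent) at or below each log2 change (horizontal axis, limited to the range shown) for all 12675 genes tested and for the 3 classes. The 3 class curves run together and lie to the left of the curve of all genes, with medians of -0.58, -0.65 and -0.58 against 0.035.

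The earliest complex, UTP-A, binds the leading spacer of the precursor first, and all 6 of its members were lower without overlap and at an unadjusted p below 0.05, with a median log2 change of -0.71. Wdr75 (chr1:45795153-45823638, GRCm38.p6) measured 122.2 and 120.5 CPM with plain oil and 75.7 and 65.3 CPM with ozonated oil. Its log2 change was -0.78 (SE 0.172), with an unadjusted p of 0.00362 and an adjusted p of 0.256 in edgeR's quasi-likelihood test. Wdr43 (chr17:71616178-71659031) measured 124.3 and 120.3 CPM with plain oil and 77.9 and 67.9 CPM with ozonated oil, a log2 change of -0.75 (SE 0.171, adjusted p 0.268). For both WD-repeat genes the gap between the oils was several times the gap between libraries of an oil. The HEAT-repeat protein gene Heatr1, named here after its values were seen, had the lowest change of the complex, -0.92, and its ozonated oil libraries differed, at 68.9 and 47.1 CPM. Utp4, Nol11 and Utp15 had log2 changes from -0.67 to -0.41.

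UTP-B joins next and contacts the U3 snoRNA. All 6 of its members were lower without overlap, 4 of them at an unadjusted p below 0.05, with a median log2 change of -0.54. Wdr3 (chr3:100138180-100162407) measured 83.4 and 82.2 CPM with plain oil and 47.7 and 45.1 CPM with ozonated oil. The libraries of each oil nearly coincided, and the log2 change was -0.84 (SE 0.162, adjusted p 0.223 in edgeR). Pwp2 (chr10:78170909-78185171) measured 47.4 and 46.9 CPM with plain oil and 26.3 and 22.4 CPM with ozonated oil, a log2 change of -0.95 (SE 0.186, adjusted p 0.223). The smallest change in the complex was that of Utp18, -0.30, and Tbl3 stood at -0.38. The other 2 members, Utp6 and Wdr36, lay at -0.58 and -0.50.

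UTP-C and the other processome proteins held genes with clear and with little difference. Of 10 members, 7 were lower without overlap and 4 were lower at an unadjusted p below 0.05, with a median log2 change of -0.44. Nol10 (chr12:17348421-17430095) measured 58.6 and 59.9 CPM with plain oil and 35.9 and 31.2 CPM with ozonated oil, a log2 change of -0.82 (SE 0.177, adjusted p 0.254 in edgeR). Nol6 (chr4:41114427-41124339), the UTP-C scaffold, measured 64.5 and 56.6 CPM against 42.1 and 31.4 CPM, a log2 change of -0.72 (SE 0.212, adjusted p 0.347). In both genes all ozonated oil values lay below all plain oil values. Rrp7a and Rrp36, which work with Nol6, had log2 changes of -0.40 and -0.24, and these depended on the ozonated oil library. Without library 1 they were -0.22 and -0.04, and without library 2 they were -0.64 and -0.52. Without plain oil library 2 Rrp36 was at -0.13.

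The 3 processome members whose libraries overlapped were Rrp36, Utp3 and Nop14, named after their values were seen. Utp3 measured 59.6 and 63.3 CPM with plain oil and 48.8 and 73.96 CPM with ozonated oil. Its ozonated oil libraries lay on opposite sides of plain oil, and the fitted log2 change was -0.00092 (SE 0.235), or 0.23 without ozonated oil library 1. Nop14 measured 71.1 and 74.7 CPM with plain oil and 68.0 and 75.3 CPM with ozonated oil, a log2 change of -0.03 (SE 0.164), or 0.012 without ozonated oil library 1. Utp20, which has the longest coding sequence of the members, was lower in library 2 than in library 1, at 42.2 against 74.3 CPM, with plain oil at 81.9 and 82.2 CPM.

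Factors of the maturing pre-40S particle included larger changes, with a median log2 change of -0.78 over 5 members, 4 of them lower without overlap and at an unadjusted p below 0.05. Rrp12 (chr19:41859483-41896153), an export and maturation factor, measured 47.0 and 46.5 CPM with plain oil and 22.7 and 19.7 CPM with ozonated oil. Its log2 change was -1.14 (SE 0.185), with an unadjusted p of 0.00077 and an adjusted p of 0.183 in edgeR, and DESeq2 gave an adjusted p of 0.00082. Tsr1 (chr11:74898080-74909340), which resembles a translational GTPase, measured 57.5 and 62.3 CPM with plain oil and 30.5 and 20.9 CPM with ozonated oil, a log2 change of -1.22 (SE 0.233, adjusted p 0.223). Bysl had a log2 change of -0.78 and Nob1, the nuclease that trims the end of the small-subunit rRNA, -0.58. Ltv1 was the overlapping member, with 50.7 and 61.5 CPM against 41.0 and 55.4 CPM.

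**Figure D3:**
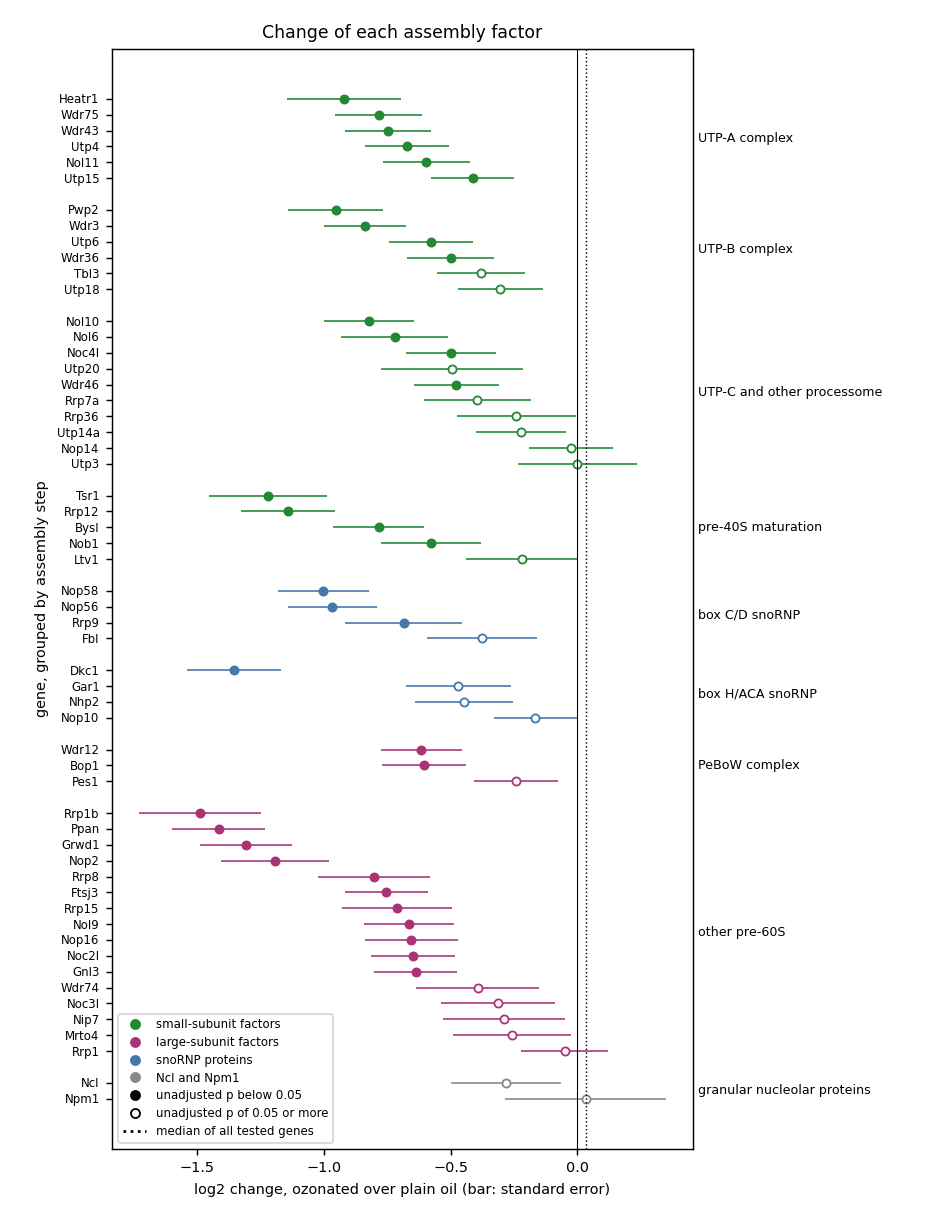
Log2 change (ozonated over plain oil) with its standard error for each assembly factor by step; filled points are those at an unadjusted p below 0.05 and the dotted line is the median of all genes tested, 0.035. UTP-A is filled throughout, while the processome, box H/ACA and pre-60S rows span from changes near -1 or beyond to values near 0.

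Of the box C/D proteins, which guide ribose methylation and include the U3 particle, all 4 were lower without overlap and 3 were lower at an unadjusted p below 0.05, with a median log2 change of -0.83. Nop56 (chr2:130274367-130279313) measured 234.3 and 235.3 CPM with plain oil and 126.9 and 113.3 CPM with ozonated oil, a log2 change of -0.97 (SE 0.175, adjusted p 0.204 in edgeR). Nop58 (chr1:59684961-59711510), its partner in the core of the particle, measured 291.1 and 253.2 CPM with plain oil and 137.2 and 134.7 CPM with ozonated oil, a log2 change of -1.0 (SE 0.181, adjusted p 0.204). Each partner was at about the same fraction of plain oil, 0.512 for Nop56 and 0.5 for Nop58. DESeq2 gave adjusted p of 0.00133 and 0.00085 for the pair. The methyltransferase Fbl of the same particle had a log2 change of -0.38, with 118.7 and 145.3 CPM against 86.8 and 116.5 CPM. The nearest libraries of the 2 oils, 118.7 and 116.5 CPM, were almost level. Leaving out ozonated oil library 1 or plain oil library 2 gave -0.21 and -0.22 for Fbl, and leaving out ozonated oil library 2 gave -0.61.

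The box H/ACA proteins differed among themselves. All 4 were lower without overlap, but 1 was lower at an unadjusted p below 0.05 and the median log2 change was -0.46. Dkc1 (chrX:75095854-75109776), the pseudouridine synthase dyskerin, measured 132.7 and 150.3 CPM with plain oil and 60.1 and 50.6 CPM with ozonated oil. Its log2 change was -1.36 (SE 0.185), rank 17 by p among all genes tested, with an adjusted p of 0.166 in edgeR and of 7.33e-06 in DESeq2. Nhp2 (chr11:51619773-51623718) measured 193.1 and 191.7 CPM with plain oil and 124.4 and 157.8 CPM with ozonated oil, a log2 change of -0.45 (SE 0.193, adjusted p 0.533). The remaining subunits Gar1 and Nop10 had log2 changes of -0.47 and -0.17, so the catalytic subunit was lower by more than its 3 partners as measured, and that difference was not tested. Nop10 has the shortest coding sequence of the members, 192 nt, and Dkc1 has 1527 nt.

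The PeBoW complex, needed to process the spacers of the large-subunit rRNA, was lower without overlap in all 3 members. Wdr12 (chr1:60071361-60098500) measured 83.5 and 79.9 CPM with plain oil and 54.2 and 52.5 CPM with ozonated oil, a log2 change of -0.62 (SE 0.161, adjusted p 0.302 in edgeR). Bop1 (chr15:76452988-76477249) measured 166.4 and 175.1 CPM against 114.3 and 110.2 CPM, a log2 change of -0.61 (SE 0.165, adjusted p 0.327). Pes1 (chr11:3963975-3980004) measured 175.2 and 178.4 CPM against 146.4 and 152.4 CPM, a log2 change of -0.24 (SE 0.166, adjusted p 0.729). Pes1 thus kept 84.5% of its plain oil level while its partners stood at 65.7% and 65.3%.

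The other 16 pre-60S factors held the largest changes and some of the smallest, with 13 lower without overlap, 11 lower at an unadjusted p below 0.05 and a median log2 change of -0.66. Ppan (chr9:20888175-20892179), a factor of early pre-60S particles, measured 45.3 and 44.3 CPM with plain oil and 16.05 and 17.54 CPM with ozonated oil. Its log2 change was -1.42 (SE 0.183), rank 14 by p among all genes tested, with an adjusted p of 0.166 in edgeR and of 7.33e-06 in DESeq2. Grwd1 (chr7:45825223-45830994), whose yeast counterpart is a chaperone of a large-subunit ribosomal protein, measured 39.96 and 39.55 CPM with plain oil and 16.5 and 15.6 CPM with ozonated oil, a log2 change of -1.31 (SE 0.183, adjusted p 0.166). In both genes the libraries of an oil lay close together and the ozonated oil level was 37.5% and 40.4% of plain oil.

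The methyltransferase genes Nop2, Rrp8 and Ftsj3 and the related genes Rrp1 and Rrp1b are named next after their values were seen. Nop2 measured 190.7 and 157.2 CPM with plain oil and 86.0 and 66.1 CPM with ozonated oil, a log2 change of -1.19 (SE 0.213). Rrp8 and Ftsj3 had log2 changes of -0.80 and -0.75. Rrp1b (chr17:32036162-32062865) measured 76.4 and 71.3 CPM with plain oil and 31.6 and 21.0 CPM with ozonated oil, a log2 change of -1.49 (SE 0.24, adjusted p 0.183 in edgeR). Rrp1 (chr10:78400362-78413043) measured 196.0 and 183.5 CPM with plain oil and 176.7 and 189.9 CPM with ozonated oil, a log2 change of -0.05 (SE 0.172, adjusted p 0.953). The 2 genes are related in sequence, and the sources used here do not say how reads matching both were counted. Nip7, Mrto4 and Rrp1 were the pre-60S members whose oils overlapped, and Wdr74 and Noc3l, with log2 changes of -0.39 and -0.31, were lower without overlap but not at an unadjusted p below 0.05. Wdr74 measured 35.1 and 38.3 CPM with plain oil and 22.4 and 33.4 CPM with ozonated oil, and Noc3l 43.6 and 42.8 CPM against 41.0 and 28.6 CPM. Their log2 changes were -0.17 and -0.63 without ozonated oil library 1 and -0.72 and -0.08 without library 2, so each rested mainly on a different library.

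The 2 nucleolar proteins Ncl and Npm1, the most abundant members, had a median log2 change of -0.12. This was the smallest median of any group, but it rests on 2 genes. Ncl (chr1:86344719-86359455) measured 1761 and 1711 CPM with plain oil and 1397 and 1462 CPM with ozonated oil, a log2 change of -0.28 (SE 0.217, adjusted p 0.767 in edgeR). Npm1 (chr11:33152498-33164142) measured 988.6 and 1333 CPM with plain oil and 896.3 and 1479 CPM with ozonated oil, a log2 change of 0.03 (SE 0.317, adjusted p 0.983). Both library 2 values of Npm1 lay above both library 1 values, whichever oil was given, and without ozonated oil library 2 its log2 change was -0.38. Npm1 has processed copies in the genome, and how reads matching them were counted is unknown, so its counts are uncertain.

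**Figure D4:**
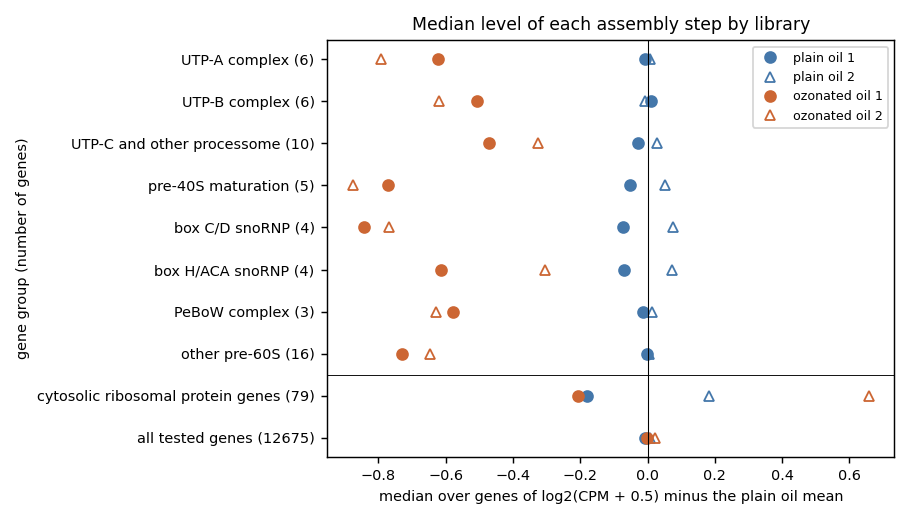
Median over genes of log2(CPM + 0.5) minus the plain oil mean for each assembly step, for 79 cytosolic ribosomal protein genes and for all genes tested, by library. Each of the 8 assembly steps drawn has both ozonated oil libraries below both plain oil libraries, from -0.30 to -0.87, while ribosomal protein genes do not separate the oils.

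The 8 members whose oils overlapped were Rrp36, Utp3, Nop14, Ltv1, Rrp1, Nip7, Mrto4 and Npm1. Ozonated oil library 1 lay below both plain oil libraries for 56 of 56 members and library 2 for 48, so every overlap lay in library 2. Over all members, 28 were higher and 28 lower in library 2 than in library 1. This difference, and that between the plain oil libraries, ran with coding length. Over the 56 members Pearson's r between log2 coding length and the log2 difference of ozonated oil library 2 over library 1 was -0.689 (Spearman's rho -0.724). Over 11618 genes tested with a length it was -0.47 (rho -0.49). For plain oil library 2 over library 1 the members gave -0.427 (rho -0.444) and all genes -0.106 (rho -0.132). Over the members the differences of the 2 oils correlated with each other at 0.585 (rho 0.557). Points of these correlations share the same libraries, and the values are descriptions.

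The change between the oils was also smaller in shorter members. Among the 28 members with coding sequences shorter than the median of 1698 nt, the median log2 change was -0.46 and 21 were lower without overlap. Among the 28 longer members it was -0.67 and 27 were lower without overlap. In ozonated oil library 1 both sets stood at nearly the same median relative to plain oil, -0.60 and -0.59, whereas in library 2 they stood at -0.33 and -0.74. Pearson's r of log2 coding length with the log2 change between oils was -0.31 over the members and -0.0743 over all genes with a length. The part of length, depth or RNA quality in the differences between members was not tested.

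**Figure D5:**
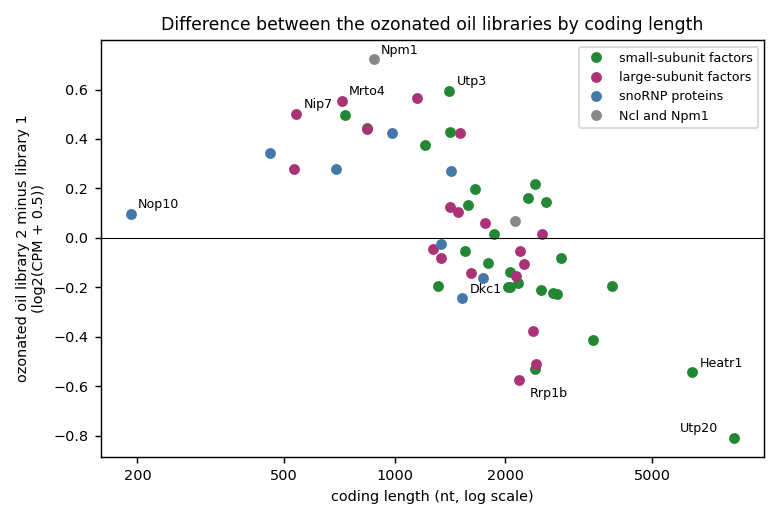
Log2 difference between ozonated oil library 2 and library 1 (vertical axis, log2(CPM + 0.5)) against coding length in nt (horizontal axis, log scale) for each assembly factor. Shorter members such as Nip7, Mrto4 and Npm1 lie above 0 and longer members such as Heatr1 and Utp20 lie below 0.

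Assembly genes outside the list were shifted in the same direction, with smaller medians than the classes of members. For comparison with these lists and those of the next paragraph, 46.0% of all genes tested had a lower log2 change. Of all genes tested 20.0% were lower without overlap and 5.29% were lower at an unadjusted p below 0.05 in edgeR. Of 25 other small-subunit factors 21 had a lower log2 change, 14 were lower without overlap and 7 were lower at an unadjusted p below 0.05, with a median of -0.29. Rcl1 measured 38.3 and 40.1 CPM with plain oil and 21.8 and 22.3 CPM with ozonated oil, a log2 change of -0.83, and Aatf had -0.63. Of 31 other large-subunit factors 28 were lower, 24 without overlap and 9 at an unadjusted p below 0.05, with a median of -0.38. Rrs1 and Nifk led them by p, with log2 changes of -0.92 and -0.88. Of 10 other snoRNP factors 9 were lower and 3 were lower at an unadjusted p below 0.05, with a median of -0.37. Nolc1, a snoRNP chaperone, measured 284.5 and 243.0 CPM with plain oil and 151.1 and 97.5 CPM with ozonated oil, a log2 change of -1.09, and Tcof1 had -0.75. Relative to plain oil, the medians of these 3 lists were -0.45, -0.47 and -0.44 in ozonated oil library 1. In library 2 they were -0.09, -0.33 and -0.34. Their median coding lengths were 1140, 1455 and 1420.5 nt. The small-subunit, large-subunit and snoRNP members had 2061, 1509 and 1156.5 nt. The part of length in these differences was not tested.

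The RNA exosome, which trims rRNA precursors, was lower in 10 of 13 members and higher in 3, with 5 lower and 1 higher without overlap, 2 lower at an unadjusted p below 0.05 and a median log2 change of -0.21. Its first members by p were Exosc1, at -0.62, and Dis3, at -0.67. RNA polymerase I transcription was represented by 11 genes, of which 8 were lower, all without overlap, and 3 were higher, 1 of them without overlap. Of the lower genes 4 were so at an unadjusted p below 0.05, with a median of -0.44. Polr1b, a core subunit of the enzyme, measured 83.0 and 63.6 CPM with plain oil and 30.3 and 16.3 CPM with ozonated oil, a log2 change of -1.66 (SE 0.329, adjusted p 0.232 in edgeR). Polr1e, at -1.11, also had both ozonated oil libraries below both plain oil libraries.

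Ribosomal protein genes showed no such separation of the oils. Of 79 cytosolic ribosomal protein genes 77 had a positive log2 change, with a median of 0.29, but in 79 of 79 the oils overlapped and none was at an unadjusted p below 0.05. Their library medians relative to plain oil were -0.18 and 0.18 with plain oil and -0.21 and 0.66 with ozonated oil, so the positive median rested on ozonated oil library 2. These genes were also shorter, with a median coding length of 453 nt against 1698 nt for the members. The part of length in this contrast was not tested. The row of the rRNA precursor, Rn45s, measured 2379 and 3787 CPM with plain oil and 3819 and 11758 CPM with ozonated oil. The ozonated oil libraries differed by more than the plain oil libraries did, and the log2 change was 1.34 (SE 0.56, adjusted p 0.517 in edgeR). The sources used here do not say how rRNA was removed or how reads of this multi-copy gene were placed, so the row is only a level of what each library held.

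Myc, the gene of the transcription factor, was also lower. It measured 83.9 and 81.5 CPM with plain oil and 9.47 and 15.8 CPM with ozonated oil, a log2 change of -2.71 (SE 0.28), rank 4 by p among all genes tested, with an adjusted p of 0.166 in edgeR. Because MYC with its partner MAX binds the E-box CACGTG, this sequence, which reads the same on both strands, was counted in the promoters of the members. RefSeq windows on GRCm38.p6, 300 bases long from 250 before to 50 after the start, matched 48 of 56 members, and Bop1, Fbl, Nol6, Npm1, Rrp12, Tbl3, Utp6 and Wdr36 had no entry matched. An E-box was present in 12 of these 48 members (25%), beside 12.1% of 9808 tested genes and 8.09% of all 27025 genes with a window. Genes were counted once, as having a motif if any of their windows held it, so genes with several windows had more chances. The 12 members were Grwd1, Ltv1, Nol11, Nop2, Pes1, Rrp7a, Tsr1, Utp18, Utp20, Utp4, Wdr43 and Wdr46.

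The E-boxes of Grwd1, Tsr1 and Nop2 are shown because these genes had the smallest p among the members with this motif. Whether the E-boxes had a part in the lower levels of these genes was not tested. Capitals mark the E-box, each sequence is written 5′ to 3′ on the strand of its gene, and all are RefSeq sequence of GRCm38.p6. The Grwd1 stretch is chr7:45830740-45830767 on the minus strand, with the E-box 35 to 40 bases after the start used for its window. That window, chr7:45830740-45831039, has its start inside the gene span given above. The E-box therefore lies further from the outer end of that span than from the start used. The Tsr1 stretch is chr11:74898092-74898121 on the plus strand, with the E-box 25 to 30 bases after the start. The Nop2 stretch is chr6:125131811-125131840 on the plus strand, with the E-box 60 to 55 bases before the start.
Grwd1: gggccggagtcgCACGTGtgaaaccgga
Tsr1: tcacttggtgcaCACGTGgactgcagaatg
Nop2: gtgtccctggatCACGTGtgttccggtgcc

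For Nop2 the 250 bases before the start (chr6:125131633-125131882, plus strand, 67.6% G and C) show how the motif sits in its promoter, again with the E-box in capitals.
Nop2 promoter: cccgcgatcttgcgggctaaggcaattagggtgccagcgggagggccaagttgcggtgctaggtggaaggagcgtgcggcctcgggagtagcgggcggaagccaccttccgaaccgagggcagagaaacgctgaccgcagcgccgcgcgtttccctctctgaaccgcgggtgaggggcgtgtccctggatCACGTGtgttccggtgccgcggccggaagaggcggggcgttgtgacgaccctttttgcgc

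Counted from the start used for each window, 5 of the 12 E-boxes lay before and 7 after it. Within 100 bases before to 50 after that start lay 11 of them. Members with the E-box were not lower than members without it, with median log2 changes of -0.55 and -0.64, and 11 of 12 against 30 of 36 were lower without overlap. On either strand the letters TCTCGCGA, the leading part of the ZBTB33 palindrome, were present in 4 of 48 members (8.33%). These were Nol9, Nop14, Nop58 and Tsr1, beside 2.56% of tested genes and 1.13% of all genes. The full ZBTB33 palindrome was present in 1 of 48 members (2.08%), beside 1.19% of tested genes. The letters CGCATGCG, the inner part of the NRF1 palindrome, were present in 1 of 48 members (2.08%), Nob1, beside 4.52% and 2.07%. The full NRF1 palindrome was present in 0 of 48 members, beside 2.45% of tested genes. CACGTG, TCTCGCGA and CGCATGCG do not contain one another, and the Tsr1 window held both an E-box and TCTCGCGA. A match of letters is not a measured binding site, and windows without a match say nothing about a factor.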

How the data were processed

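RNA-seq of B16F10 cells gave 1 table of whole-number counts per gene for 4 libraries, which the authors deposited as raw counts. Per the submitters' processing notes the genome build was mm10. The same notes name, in no stated order or role, edgeR, bedtools 2.27.1, StringTie 1.3.4d, SAMtools 1.9, HISAT2 2.1.0, FastQC 0.11.7 and bcl2fastq. The sources used here do not give the counter, its annotation or its strand setting, so overlapping antisense genes cannot be told apart. Rows without a symbol numbered 1319 and 0 sample columns were left unmapped. Standard errors are the log2 change over the square root of F. Here R 4.3.3 with edgeR 4.0.16 was used on the counts: filterByExpr, TMM scaling, quasi-likelihood F-test, two-sided, Benjamini-Hochberg adjustment over 12675 genes, threshold 0.05; scripts were tested on simulated data. DESeq2 1.42.0, other scalings and filters, a replicate block and leaving out each library were alternatives. CPM were computed with TMM-scaled totals, plus 0.5 before logs. Coding length came from the main transcript of each gene in the GENCODE annotation of GRCm38.

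The members and gene lists were chosen with earlier results of these data known. Full values were given, per step, for the 2 members with the smallest p, all members of steps of 3 or fewer, members of opposite sign, Myc, Rn45s and up to 2 genes per context list. The leading letters of the ZBTB33 palindrome and the inner letters of the NRF1 palindrome were added later. By then the full palindromes had been found in 1 and 0 members. Each of the 79 ribosomal protein genes was taken by symbol pattern. The symbols of 2 polymerase I genes of 13 listed (Cd3eap, Znrd1) were not matched.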

Additional observations from a re-analysis of the deposited data

How the results depend on the processing

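With 2 libraries per oil, calls after adjustment depended on the test. Over all genes edgeR called 0, and 4 with no low-count filter, while DESeq2 called 274; leaving out a library gave 0 to 389, the highest without ozonated oil library 1. At an unadjusted p below 0.05 the count over all genes was 1245. Among members DESeq2 called 16 and leaving out a library gave 0 to 18; members at an unadjusted p below 0.05 ran from 16 to 46. With the replicate block 1160 genes and 31 members were called, but 2 pairs do not show that the numbers pair libraries (correlation of deviations 0.526), and the block is a description. Upper-quartile scaling gave medians of -0.62 for members and -0.67 for large-subunit factors. Leaving out a library gave -0.64 to -0.55 for members, -0.67 to -0.52 for small-subunit factors, -0.67 to -0.60 for large-subunit factors and -0.75 to -0.45 for snoRNP proteins. Of 560 member values under an alternative 7 changed sign, in 3 members near 0. Leaving out a library gave -0.11 to 0.012 for Nop14, -0.38 to 0.32 for Npm1 and -0.34 to 0.23 for Utp3, and Utp3 was 0.00014 with 10 or more counts in at least 2 libraries; the cause was not tested. Where a left-out library leaves an oil with 1 sample, that sample is assumed to vary like the other oil's.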
